A study of Mus musculus with 8 samples.

Results

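The comparison described here asks whether the difference between Gfi1 KO and Gfi1 KD bone marrow is the same in young mice as in older mice, in which the KD animals are sick. All 8 bone marrow libraries of the series entered it, in 4 groups of 2 mice, namely KD and KO mice killed young, KD mice once sick and KO mice once old. KD mice carry a human GFI1 cDNA knocked into the Gfi1 locus together with a floxed neo cassette in antisense orientation, which leaves the cDNA expressed at a low level. KO mice lack Gfi1. All mice were C57Bl6, and no wild-type or KI library was included, so each value below sets one altered Gfi1 genotype against another. Ages were 39 and 42 days in young KD and 48 and 44 days in young KO. They were 187 and 78 days in sick KD and 158 and 101 days in old KO. The sample labels give AML for the sick KD mice and no AML for the others, while the paper describes the KD disease as a myeloproliferative neoplasm. Disease and genotype are joined in the older pair: there is no healthy old KD mouse and no sick KO mouse, so a response to disease cannot be told apart from a response of the KD genotype to age. The tissue was total bone marrow, a mixture of all marrow cells, and in such a sample fewer cells of a type and less RNA per cell cannot be told apart.

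Gfi1 encodes a zinc finger protein that represses transcription by recruiting histone deacetylases and the demethylase LSD1. In marrow it is known for restraining the monocytic program, for permitting neutrophil maturation and for early lymphoid development. Its relative Gfi1b has a similar role in the red cell and platelet lineages.

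For each gene the KO-minus-KD difference was taken on the log2 scale in the young mice and again in the older mice, and the second minus the first is called the log2 interaction. A positive value means that KO stood higher relative to KD in the older pair than in the young pair, which can come from a lower level in sick KD, a higher level in old KO, or a difference in the young mice. Expression levels are given as CPM, read counts normalised to library size with edgeR's TMM factors, and a gene was called when the adjusted p of edgeR's quasi-likelihood test was under 0.05 over all genes tested. The mice within a group are named 1 and 2, in the order deposited.

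Counts assigned to genes ranged from 26642067 to 42679114 per library. Reads outside annotated genes made up 42.0% and 38.8% of the total in sick KD 1 and 2, against a range of 26.9% to 33.8% elsewhere. Genes of the mitochondrial genome took 1.42% and 1.16% of the counts in sick KD and between 0.464% and 0.787% elsewhere. Sick KD 1 stood apart in its dependence on GC content, with a slope of -0.22 log2 units per 10% GC against values between -0.03 and 0.10 in the other libraries, and old KO 1 stood apart on the second principal component, at -38.0 against -16.6 for old KO 2. Mouse Gfi1 itself (chromosome 5, 107716657 to 107726036 on GRCm38) was at 6.17 and 7.03 CPM in young KD, 14.0 and 14.4 in young KO, 5.49 and 7.15 in sick KD and 13.3 and 29.7 in old KO. Its level was higher in both KO groups than in both KD groups, its log2 interaction was 0.66 (SE 0.47, adjusted p = 0.392), and without old KO 2 the value was -0.041. The human cDNA has no row of its own in the counts, so they check neither allele and the libraries are called by their labels.

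The KO-minus-KD difference in the older pair differed from that in the young pair for 1122 of 15102 genes tested, which is 7.43% of them. Of these, 653 had a positive interaction (4.32% of genes tested) and 469 a negative one (3.11%), and 4185 genes had an unadjusted p under 0.05. In 709 of the called genes the interaction was at least 1 log2 unit in size. It was at least 2 units in 311, of which 245 were positive and 66 negative. The median over all genes tested was 0.00. Calls said here or below to depend on single mice changed when 1 library was left out, which leaves 1 mouse in a group. Whether the mouse or the smaller group mattered was not tested. The counts of called genes depended on single mice in this sense. With each library left out in turn they ran from 106 genes without young KD 1 to 1614 without sick KD 2, with 127 without young KO 1, 137 without young KO 2, 249 without old KO 1, 344 without sick KD 1, 603 without young KD 2 and 704 without old KO 2. A total of 78 genes, 36 positive and 42 negative, were called in the same direction in all of these fits, and they are said below to have held with every library left out. With the trend of each library in GC content and length removed, the split turned to 805 positive (40.7%) and 1174 negative (59.3%). Of the 1122 genes, 1041 were called there in the same direction. In that setting the median over all genes was -0.06, and the values had shifted by a median of -0.09 log2 units.

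The difference in the young mice contributed little. Among the called genes the median size of the young KO-minus-KD difference was 0.11 log2 units and that of the older pair 1.25. The signed share of the interaction that came from the young difference had a median of 4.37%. This share was negative in 396 of the 1122 genes, where the young difference had the sign of the interaction, so its median does not measure size. It was at least 25% in 65 genes. None of the 1122 genes differed between young KO and young KD by the same fit. Among all genes tested 3 did, all on chromosome 5, where Gfi1 lies, and each differed in the same direction in both pairs. A430072P03Rik (107725157 to 107728801) overlaps the annotated span of Gfi1, and the strand setting of the counting is not given in the sources used here, so their reads cannot be told apart with certainty. Atp10d was at 153 and 145 CPM in young KD, 47.6 and 51.5 in young KO, 160 and 140 in sick KD and 56.8 and 56.7 in old KO. A430072P03Rik was at 39.6 and 44.1 CPM in young KD, 1.73 and 1.25 in young KO, 39.4 and 42.6 in sick KD and 1.52 and 2.35 in old KO. Galnt9 was at 0.0248 and 0 CPM in young KD, 24.7 and 25.3 in young KO, 0 and 0 in sick KD and 24.8 and 11.5 in old KO. The interaction of these genes had an adjusted p of 0.390, 0.393 and 0.691.

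**Figure D1:**
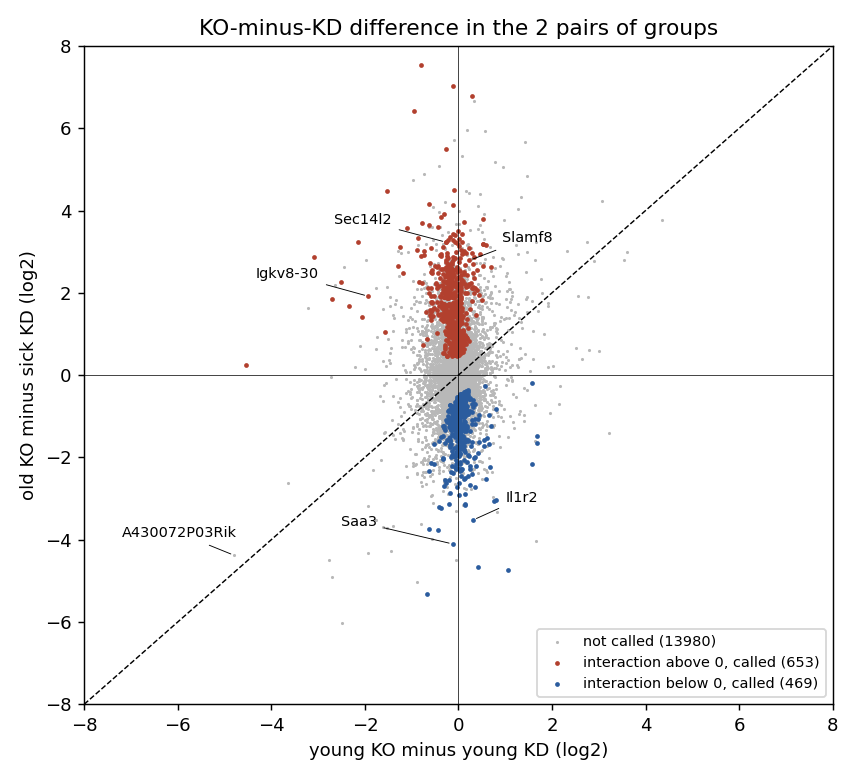
Each point is 1 of the 15102 genes tested, with the young KO minus young KD difference on the x axis and the old KO minus sick KD difference on the y axis (both log2). The 653 called genes with a positive interaction and the 469 with a negative one lie along the vertical axis, where the young difference is near 0, while A430072P03Rik lies near the dashed line of equal differences. Galnt9 lies outside the axes.

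Sick KD was the group that moved in most called genes. Both sick KD libraries lay below all other 6 libraries in 622 of the 653 positive genes (95.3%, against 23.7% of all genes tested). In 462 of the 469 negative genes they lay above all other 6 (98.5%, against 24.6% of all genes tested). Old KO moved in the opposite direction in a smaller share. Both old KO libraries lay above the other 6 in 171 positive genes (26.2%, against 6.80% of all genes tested) and below them in 99 negative genes (21.1%, against 5.15%). In 145 positive genes sick KD was lowest and old KO highest, and in 94 negative genes sick KD was highest and old KO lowest. The median positive gene was 1.33 log2 units lower in sick KD than in young KD (median -1.33) and 0.15 higher in old KO than in young KO. For the median negative gene these changes were 0.98 and -0.09. The ordering of the groups is part of what makes an interaction, and these shares describe the called genes without a test.

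**Figure D2:**
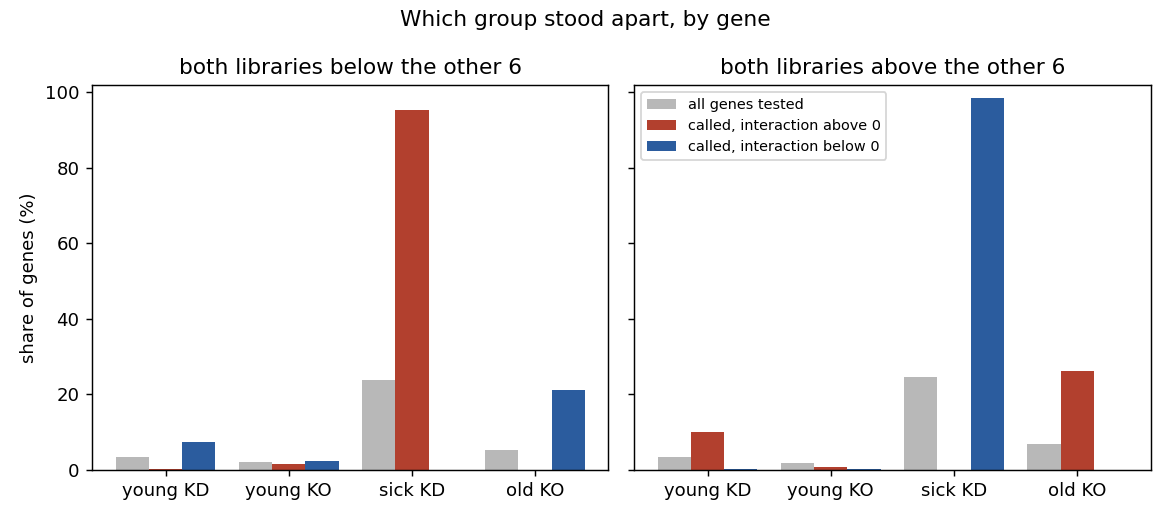
Bars give the share of genes (%) in which both libraries of a group lay below (left) or above (right) all of the other 6, for all 15102 genes tested and for the called genes. Sick KD was below in 95.3% of positive and above in 98.5% of negative genes.

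A pair of called genes, the only ones of the 1122, showed significant changes from young in opposite directions in the KD and KO genotypes. Slamf8, a receptor of macrophages and other myeloid cells, was at 6.07 and 6.70 CPM in young KD, 8.50 and 6.46 in young KO, 2.14 and 2.35 in sick KD and 15.2 and 15.9 in old KO. Both sick KD libraries lay below all young libraries and both old KO libraries above them. Its log2 interaction was 2.56 (SE 0.26, adjusted p = 0.00769), and it held with every library left out. The immunoglobulin kappa variable gene Igkv8-30 was at 10.5 and 7.45 CPM in young KD, 2.68 and 2.01 in young KO, 3.35 and 2.70 in sick KD and 11.2 and 11.6 in old KO. Here young KO and sick KD were both low and young KD and old KO both high, and the log2 interaction was 3.85 (SE 0.34, adjusted p = 0.00769). It also held with every library left out. No gene differed significantly in opposite directions between KO and KD in the young pair and in the older pair.

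Genes with a negative interaction, higher in sick KD than in any other group, included secreted acute phase and neutrophil products. Saa3, an acute phase serum amyloid A protein made by activated macrophages and neutrophils (chromosome 7, 46711998 to 46715700), was one of the most negative. It was at 1.91 and 3.41 CPM in young KD, 1.84 and 3.05 in young KO, 31.3 and 22.8 in sick KD and 1.87 and 1.30 in old KO. The sick KD values lay far above the 6 others, which overlapped among themselves, and the log2 interaction was -3.98 (SE 0.51, adjusted p = 0.0107). Lcn2, which encodes the siderophore-binding lipocalin of specific granules, was at 71.6 and 75.0 CPM in young KD, 70.5 and 90.5 in young KO, 423 and 202 in sick KD and 26.7 and 43.4 in old KO. Its log2 interaction was -3.29 (SE 0.48, adjusted p = 0.0144), and in old KO both libraries lay below all young ones. Wfdc21 encodes a small secreted protein with a WAP domain and was at 32.7 and 36.0 CPM in young KD, 37.2 and 38.1 in young KO, 173 and 105 in sick KD and 13.8 and 17.5 in old KO. It had the same order of groups as Lcn2, with a log2 interaction of -3.28 (SE 0.32, adjusted p = 0.00769). Lrg1, a secreted leucine-rich glycoprotein of neutrophil granules, was at 27.02 and 31.3 CPM in young KD, 35.9 and 48.9 in young KO, 97.2 and 98.3 in sick KD and 30.1 and 29.5 in old KO, and its old KO values lay inside the young range (-2.25, SE 0.21, adjusted p = 0.00769). Saa3, Wfdc21 and Lrg1 held with every library left out, and Lcn2 was called in 6 of the 8 fits.

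Promoters were taken from RefSeq on GRCm38.p6 for 10676 of the tested genes, and the 250 bases before each gene's first listed start were searched on both strands. The letters TTNNGCAA, close to the consensus of the C/EBP factors that drive granulocyte genes, were present in 47.1% of 17 promoters of specific and gelatinase granule genes, in 9.96% of 271 negative and 7.13% of 477 positive called genes and in 7.69% of all 10676. The stretches around the match are shown for Saa3 and Lcn2, the most negative genes given above, 5′ to 3′ on the gene's strand with the matched letters in capitals. They lie at chr7:46715728-46715815 (minus strand) for Saa3 and chr2:32387908-32387989 (minus strand) for Lcn2, where the match is on the opposite strand.
Saa3: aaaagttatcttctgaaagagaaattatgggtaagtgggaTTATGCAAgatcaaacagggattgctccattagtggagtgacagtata
Lcn2: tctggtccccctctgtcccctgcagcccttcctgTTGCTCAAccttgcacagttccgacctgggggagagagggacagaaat
A match to letters is a description of the sequence and not a bound site. The GFI1 letters AATCACNGC were found in 1.05% of 477 positive and 1.48% of 271 negative promoters, against 0.834% of all.

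Neutrophils carry their antimicrobial proteins in azurophil granules, made early, and in specific and gelatinase granules, made later. Gene lists are described here by counts and medians, to be read against the 4.32% and 3.11% of all genes called positive and negative, and no list was tested as such. Of 20 specific and gelatinase granule genes tested, 5 were called (Lcn2, Lrg1, Fcnb, Mmp8 and Anxa1), all negative, and the list median was -0.55. With 1 library left out between 1, without young KO 2 or young KD 1, and 6, without sick KD 2, were called negative, with 2 without young KO 1 and 3 without sick KD 1, old KO 1 or young KD 2. Their summed level was 10453 and 7695 CPM in sick KD, between 3689 and 4642 CPM in the young libraries and 3250 and 3917 CPM in old KO. Of 13 azurophil granule genes, 2 were called, the protease inhibitor Serpinb1a (-1.10) and the membrane protein Ms4a3 (-1.08), and the list median was -0.43. Neither was called without sick KD 1, old KO 1, young KO 1, young KO 2 or young KD 1. The primary granule enzyme genes Mpo, Elane, Prtn3 and Ctsg had adjusted p-values between 0.0676 and 0.227 and were not called. The summed level of the azurophil list was 25834 and 26356 CPM in sick KD, above all other libraries (18171 to 22937 CPM). By DESeq2, 5 azurophil and 8 specific and gelatinase granule genes were called negative. With GC and length trends removed these counts were 4 and 8.

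The calprotectin subunits S100a8 and S100a9 had large but mouse-dependent values. S100a8 was at 472 and 649 CPM in young KD, 389 and 442 in young KO, 2141 and 646 in sick KD and 73.2 and 132 in old KO. Sick KD 2 lay inside the young KD range and sick KD 1 far above it, while both old KO libraries lay below all others. The log2 interaction of S100a8 was -3.33 (SE 0.71, adjusted p = 0.0347) and that of S100a9 was -3.12 (SE 0.76, adjusted p = 0.0463), and with 1 library left out they were called in 2 and 1 of the 8 fits. Without sick KD 1 they were -2.22 and -1.83. Of 14 stefin A and S100 genes tested, 3 were called and all 14 values were negative, with a list median of -1.92. The median was -0.47 without sick KD 1 and -0.40 over the 8 members with at least 10 counts in every library, and no member was called without sick KD 1, young KO 1, young KO 2 or young KD 1.

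Neutrophil receptor and chemotaxis genes were mostly negative, with 5 of 25 called negative and 1 positive (list median -0.44). The calls depended on single mice, while the median stayed between -0.68 and -0.40 with 1 library left out. The decoy IL-1 receptor Il1r2 was at 1.17 and 1.27 CPM in young KD, 1.27 and 1.77 in young KO, 20.1 and 9.92 in sick KD and 1.30 and 1.30 in old KO, and its log2 interaction was -3.84 (SE 0.51, adjusted p = 0.0112). Both sick KD mice lay above a narrow range of the other 6. It was called in 7 of the 8 fits. Cd33, an inhibitory lectin of myeloid cells, was at 15.1 and 20.96 CPM in young KD, 15.2 and 18.1 in young KO, 109 and 53.6 in sick KD and 16.6 and 14.9 in old KO (-2.26, SE 0.43, adjusted p = 0.0279), and the formyl peptide receptor Fpr2 (-1.63) and Clec4e (-1.01) were also negative. In the same list of 25 neutrophil receptor and chemotaxis genes, Retnlg, a resistin-like protein of neutrophils, went the other way. It was at 20.0 and 16.3 CPM in young KD, 11.9 and 12.2 in young KO, 9.21 and 8.36 in sick KD and 38.0 and 21.8 in old KO, with a log2 interaction of 2.36 (SE 0.34, adjusted p = 0.0144). Of 22 monocyte genes, 2 were called, in opposite directions. The matrix proteoglycan Vcan was at 194 and 376 CPM in young KD, 292 and 268 in young KO, 1488 and 1141 in sick KD and 142 and 256 in old KO (-2.70, SE 0.49, adjusted p = 0.0232), and Cx3cr1, the fractalkine receptor of patrolling monocytes, was at 153 and 195 CPM in young KD, 186 and 145 in young KO, 81.0 and 104 in sick KD and 218 and 201 in old KO (1.25, SE 0.25, adjusted p = 0.0297). The list median was -0.09. Ms4a4a, Crispld2 and Abca13 completed the negative genes named by size, with log2 interactions of -2.34, -2.92 and -2.68. Itgam, which encodes Mac1, was at 634 and 552 CPM in young KD, 567 and 551 in young KO, 683 and 482 in sick KD and 629 and 565 in old KO, and its interaction of 0.12 (SE 0.23, adjusted p = 0.766) changed sign without sick KD 2.

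Id1 and Id2, which lack a DNA-binding domain and block E proteins, were negative among 38 myeloid fate factors. Id2 was at 58.0 and 56.1 CPM in young KD, 47.0 and 46.0 in young KO, 178 and 146 in sick KD and 49.2 and 53.4 in old KO. The sick KD libraries lay above all others, the log2 interaction was -1.37 (SE 0.15, adjusted p = 0.00800), and it held with every library left out. Id1 had a value of -1.06 (SE 0.21, adjusted p = 0.0287). In the same list Gata1 and Irf4 were positive and are given with their lineages below.

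**Figure D3:**
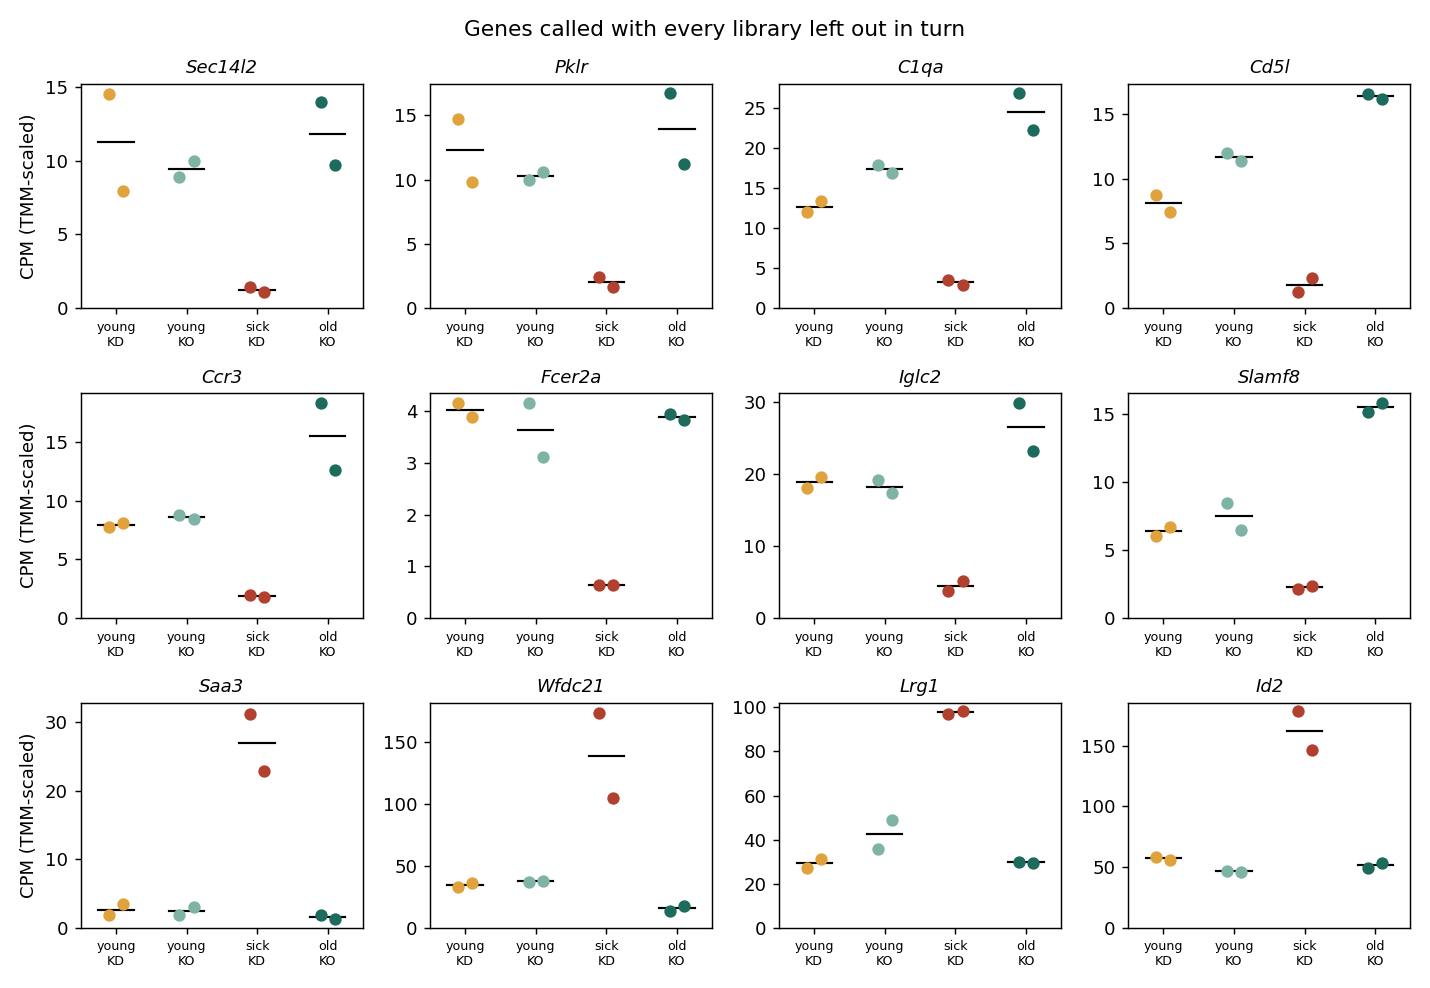
CPM of 12 genes in each library (points, 2 mice per group) with the group mean (line). All were called with every library left out in turn. In the upper 8 panels sick KD is lowest, and in the lower 4 it is highest.

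The most positive of the genes named by size was 1300017J02Rik, at 16.3 and 8.54 CPM in young KD, 8.57 and 13.5 in young KO, 2.38 and 2.28 in sick KD and 35.9 and 11.97 in old KO (3.53, SE 0.74, adjusted p = 0.0337). Its level in old KO 1 was far above that in old KO 2, and it was called in 2 of the 8 fits with 1 library left out. The tetraspanin Tspan8 was at 12.8 and 5.49 CPM in young KD, 5.39 and 9.29 in young KO, 1.09 and 1.17 in sick KD and 12.3 and 7.53 in old KO (3.44, SE 0.65, adjusted p = 0.0258), and Epdr1 had a log2 interaction of 2.95 (SE 0.47, adjusted p = 0.0166). In both, sick KD lay below all other libraries, and they were called in 3 and 4 of the 8 fits. The other genes named by size are given below with the list or lineage they belong to.

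Resident marrow macrophages engulf dying cells and expelled erythroid nuclei. Of 24 of their genes tested, 13 were called (54.2%), all positive, and the list median was 1.08. C1qa, a chain of complement C1q (chromosome 4, 136895917 to 136898803), was at 11.95 and 13.3 CPM in young KD, 17.9 and 16.8 in young KO, 3.55 and 2.85 in sick KD and 26.8 and 22.2 in old KO. In the young mice KO lay slightly above KD, and in the older pair sick KD lay below all others and old KO above all others. Its log2 interaction was 2.48 (SE 0.22, adjusted p = 0.00769). Cd5l, an apoptosis inhibitor secreted by macrophages, was at 8.78 and 7.45 CPM in young KD, 11.998 and 11.4 in young KO, 1.25 and 2.35 in sick KD and 16.6 and 16.2 in old KO and had the same order of groups (2.65, SE 0.34, adjusted p = 0.0107). The mannose receptor Mrc1 was at 33.2 and 37.8 CPM in young KD, 47.2 and 40.6 in young KO, 12.6 and 14.0 in sick KD and 66.9 and 50.8 in old KO (1.84, SE 0.22, adjusted p = 0.00864), and the phosphatidylserine-dependent receptor Axl at 30.1 and 33.2 CPM in young KD, 41.0 and 45.02 in young KO, 14.5 and 11.3 in sick KD and 48.4 and 50.2 in old KO (1.496, SE 0.18, adjusted p = 0.00947). The haemoglobin scavenger receptor Cd163 had a log2 interaction of 2.57 (SE 0.47, adjusted p = 0.0250). Spic, the factor that specifies red pulp and marrow macrophages, had one of 2.20 (SE 0.51, adjusted p = 0.0429). C1qa, Cd5l, Mrc1 and Axl held with every library left out. The number of macrophage genes called ran from 4, without young KO 1 or without young KO 2, to 13 without old KO 2, with 7 without sick KD 1, 6 without old KO 1, 5 without young KD 1 and 7 without young KD 2, while the list median stayed between 0.82 and 1.29.

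Hmox1, the haem-degrading enzyme, was at 48.7 and 47.1 CPM in young KD, 51.4 and 55.4 in young KO, 56.0 and 54.3 in sick KD and 72.6 and 57.8 in old KO, with a log2 interaction of 0.09 (SE 0.17, adjusted p = 0.774). The summed level of the list was 1113 and 1003 CPM in sick KD, between 1051 and 1227 CPM in the young libraries and 1652 and 1456 CPM in old KO.

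Erythroid genes had the highest list median, 2.38, and all 33 values were above 0. Of these 33, 14 were called. Klf1, the erythroid Krüppel-like factor, was at 47.3 and 22.7 CPM in young KD, 24.7 and 34.7 in young KO, 6.86 and 8.82 in sick KD and 51.4 and 33.95 in old KO. Sick KD lay below the others, and the young libraries varied among themselves, most in KD. The log2 interaction was 2.68 (SE 0.50, adjusted p = 0.0258). Gata1, the master factor of the lineage, was at 29.5 and 18.2 CPM in young KD, 19.5 and 20.3 in young KO, 8.48 and 6.33 in sick KD and 35.3 and 21.6 in old KO (2.20, SE 0.41, adjusted p = 0.0252), and Epor, the erythropoietin receptor, at 13.6 and 8.75 CPM in young KD, 8.07 and 11.1 in young KO, 2.71 and 2.74 in sick KD and 17.3 and 9.27 in old KO (2.505, SE 0.48, adjusted p = 0.0264). Gfi1b was at 18.4 and 12.6 CPM in young KD, 13.4 and 14.2 in young KO, 5.90 and 4.66 in sick KD and 22.2 and 12.3 in old KO (1.88, SE 0.41, adjusted p = 0.0375), and the haematopoietic factor Tal1 had a log2 interaction of 1.86 (SE 0.42, adjusted p = 0.0412). Pklr, which encodes the liver and red cell pyruvate kinase, was named for the size of its change and is not in the list. It was at 14.7 and 9.83 CPM in young KD, 9.93 and 10.57 in young KO, 2.38 and 1.64 in sick KD and 16.7 and 11.2 in old KO, its log2 interaction was 3.06 (SE 0.40, adjusted p = 0.0107), and it held with every library left out, as did Sec14l2, a lipid-binding protein, at 14.6 and 7.96 CPM in young KD, 8.86 and 9.96 in young KO, 1.45 and 1.07 in sick KD and 14.0 and 9.68 in old KO (3.49, SE 0.46, adjusted p = 0.0112). The calls in the list changed with the library that was left out. Without young KO 1 or without young KD 1 no erythroid gene was called, without sick KD 1, old KO 1 or young KO 2 there was 1, without sick KD 2 there were 7, and without young KD 2 there were 21, while the list median stayed between 1.67 and 2.79.

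The letters AGATAAG, a common form of the GATA site, stood in 21.7% of 23 erythroid promoters in the 250 bases before the start and in 1.70% of all 10676. They stood in 18.2% of the 11 called erythroid promoters, and in 3.14% of 477 positive and 1.48% of 271 negative promoters. The stretches of Pklr (chr3:89136067-89136141, plus strand) and Epor (chr9:21963585-21963671, minus strand) are shown with the match in capitals, which in Epor is on the opposite strand.
Pklr: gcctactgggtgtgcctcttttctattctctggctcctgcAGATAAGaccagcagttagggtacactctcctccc
Epor: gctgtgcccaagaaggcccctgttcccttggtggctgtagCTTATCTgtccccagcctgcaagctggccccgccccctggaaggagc
They are shown because both are called genes that hold the letters, which most called erythroid promoters did not, and Pklr is outside the erythroid list.

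B cells develop in the marrow, and mature B cells return to it. Of 30 B-cell genes, 8 were positive and Bst1 was negative (-1.14), with a list median of 1.76. Their summed level was between 1445 and 2234 CPM in the young libraries, 210 and 304 CPM in sick KD and 390 and 547 CPM in old KO, so it was lower in both older groups and lowest in sick KD. Fcer2a, the low-affinity IgE receptor CD23 of mature B cells, was at 4.17 and 3.89 CPM in young KD, 4.16 and 3.11 in young KO, 0.646 and 0.640 in sick KD and 3.95 and 3.83 in old KO. Only sick KD was low, the log2 interaction was 2.74 (SE 0.33, adjusted p = 0.00947), and it held with every library left out. Cxcr5, the receptor that brings B cells to follicles, was at 10.8 and 7.69 CPM in young KD, 8.64 and 6.67 in young KO, 0.888 and 0.854 in sick KD and 4.48 and 7.20 in old KO (3.02, SE 0.42, adjusted p = 0.0129), and the complement receptor Cr2 at 2.93 and 3.53 CPM in young KD, 3.48 and 2.31 in young KO, 1.37 and 0.782 in sick KD and 4.97 and 5.18 in old KO (2.39, SE 0.44, adjusted p = 0.0251). With a library left out the number of B-cell genes called positive ran from 1 without young KO 2 to 25 without sick KD 2.

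Plasma cell genes had their high values in old KO. Of 19 genes, 6 were called and all were positive (list median 1.76), and with 1 library left out between 1, without young KO 1 or young KD 1, and 7, without old KO 2, were called. Jchain, the joining chain of secreted IgM and IgA, was at 86.9 and 142 CPM in young KD, 82.9 and 103 in young KO, 108 and 105 in sick KD and 533 and 259 in old KO. Sick KD lay in the young range, old KO lay above all others, and old KO 1 was far above old KO 2. The log2 interaction was 2.19 (SE 0.47, adjusted p = 0.0352), and it was called in 1 of the 8 fits. Iglc2, a lambda light chain constant gene, was at 18.02 and 19.6 CPM in young KD, 19.1 and 17.3 in young KO, 3.71 and 5.16 in sick KD and 29.8 and 23.1 in old KO. It was low in sick KD and high in old KO, had a log2 interaction of 2.62 (SE 0.26, adjusted p = 0.00769), and held with every library left out. Irf4, a factor of plasma cells and of several dendritic cells, was at 134 and 120 CPM in young KD, 90.6 and 113 in young KO, 14.1 and 21.9 in sick KD and 65.4 and 54.6 in old KO. It was lower in both older groups than in the young libraries and lowest in sick KD (2.04, SE 0.28, adjusted p = 0.0127). The endoplasmic reticulum protein Mzb1 had a log2 interaction of 2.07 (SE 0.37, adjusted p = 0.0234). Among immunoglobulin variable genes, 20 of 161 were positive and none negative (12.4% called).

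Of 32 T-cell and NK-cell genes, 7 were positive and none negative (list median 1.29). Cd4 was at 5.43 and 6.42 CPM in young KD, 5.07 and 4.93 in young KO, 1.21 and 1.81 in sick KD and 7.82 and 5.46 in old KO (2.37, SE 0.37, adjusted p = 0.0160). Eomes, a T-box factor of NK and cytotoxic T cells, was at 5.80 and 4.92 CPM in young KD, 6.23 and 5.91 in young KO, 1.25 and 1.03 in sick KD and 3.70 and 5.39 in old KO (1.82, SE 0.34, adjusted p = 0.0263). Sick KD lay below the others in both. The count of called T and NK genes was 0 without young KO 1, young KO 2 or young KD 1 and at most 6 in the other fits. Of 29 stem and progenitor genes, 3 were positive and Cdk6 negative (-0.76). Trib2, a pseudokinase that promotes degradation of C/EBP alpha, was at 24.0 and 23.1 CPM in young KD, 16.9 and 19.5 in young KO, 1.86 and 2.92 in sick KD and 8.88 and 8.88 in old KO. It was lower in both older groups than in the young ones, the log2 interaction was 2.26 (SE 0.27, adjusted p = 0.00886), and it held with every library left out.

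Of 21 eosinophil, basophil and mast cell genes tested, 7 were called, all positive (list median 1.12), and their summed level was 2170 and 1594 CPM in old KO against 1067 to 1320 CPM in the other 6 libraries. The eotaxin receptor Ccr3 was at 7.79 and 8.08 CPM in young KD, 8.79 and 8.41 in young KO, 1.98 and 1.81 in sick KD and 18.3 and 12.7 in old KO. Sick KD lay below and old KO above all young libraries. Its log2 interaction was 2.91 (SE 0.29, adjusted p = 0.00769), and it held with every library left out. Alox15, the 12/15-lipoxygenase of eosinophils and macrophages, was at 14.8 and 13.8 CPM in young KD, 11.3 and 13.3 in young KO, 4.36 and 4.91 in sick KD and 46.3 and 20.7 in old KO (3.07, SE 0.47, adjusted p = 0.0159), and the ribonuclease Ear6 at 25.9 and 20.99 CPM in young KD, 25.5 and 27.9 in young KO, 9.73 and 15.5 in sick KD and 96.1 and 40.8 in old KO (2.25, SE 0.52, adjusted p = 0.0429). The number called ran from 1 without young KO 1 to 9 without old KO 2, with 2 without sick KD 1.

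Antigen presentation by MHC class II is a property of B cells, dendritic cells and activated macrophages. Of 16 class II genes, 7 were called and all were positive (list median 1.10). Only 1 was called without sick KD 1, old KO 1, young KO 1, young KO 2 or young KD 1, and 2 were without young KD 2. H2-Ab1 was at 63.6 and 83.5 CPM in young KD, 92.6 and 55.6 in young KO, 17.0 and 36.9 in sick KD and 410 and 124 in old KO. Both old KO libraries lay above all others and both sick KD libraries below, but old KO 1 was far above old KO 2. The log2 interaction of H2-Ab1 was 3.29 (SE 0.79, adjusted p = 0.0449), that of H2-Eb1 3.12 (SE 0.68, adjusted p = 0.0369) and that of the invariant chain Cd74 3.35 (SE 0.77, adjusted p = 0.0414), and each was called in 2 of the 8 fits. Without old KO 1 they were 2.19, 2.26 and 2.30 and were not called. H2-Ob, a chain of the B-cell regulator H2-O, was at 32.8 and 28.7 CPM in young KD, 26.8 and 25.5 in young KO, 4.85 and 6.47 in sick KD and 18.9 and 18.3 in old KO. In contrast to H2-Ab1 it was below the young level in old KO too, its log2 interaction was 1.95 (SE 0.21, adjusted p = 0.00800), and it held with every library left out.

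The letters GATTGG, the Y box shared by class II promoters, were found in 75.0% of 12 class II promoters and in 19.6% of all 10676. They were in 100% of the 5 called class II promoters, but in 20.8% of 477 positive and 19.9% of 271 negative promoters, near the share of all. H2-Eb1 (chr17:34305767-34305866, plus strand) holds them on both strands and H2-Ob (chr17:34238807-34238892, plus strand) once.
H2-Eb1: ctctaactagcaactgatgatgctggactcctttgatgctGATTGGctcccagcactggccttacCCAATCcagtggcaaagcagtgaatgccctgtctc
H2-Ob: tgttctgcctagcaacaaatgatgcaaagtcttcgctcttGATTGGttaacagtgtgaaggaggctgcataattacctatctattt
Of MHC class I genes, 3 of 19 were positive (H2-Q6 at 1.42, H2-Q4 at 1.203 and the peptide transporter Tap2 at 0.78) and Pdia3 was negative (-0.71). These class I calls depended on single mice, and the list median of 0.38 ran from 0.13 to 0.60 with 1 library left out. Dendritic cell genes had 8 positive of 21 and Lair1 negative (-0.95), with a list median of 1.74. The homing receptor Ccr7 was at 14.6 and 9.71 CPM in young KD, 11.1 and 11.3 in young KO, 1.53 and 1.10 in sick KD and 5.81 and 8.12 in old KO (2.52, SE 0.38, adjusted p = 0.0153), and Zbtb46, a factor of classical dendritic cells, had a log2 interaction of 2.38 (SE 0.45, adjusted p = 0.0256). The number of dendritic cell genes called positive was 0 without young KO 1 or young KD 1 and 3 without sick KD 1.

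Interferon-stimulated genes were positive in 18 of 52 and negative in none (list median 0.79, with 94.2% of members above 0). Rsad2, the antiviral enzyme viperin (chromosome 12, 26442746 to 26456452), was at 82.3 and 41.4 CPM in young KD, 39.7 and 90.9 in young KO, 6.22 and 9.78 in sick KD and 77.5 and 74.0 in old KO. The young libraries varied widely within each genotype, and both sick KD libraries lay far below them. The log2 interaction was 3.16 (SE 0.61, adjusted p = 0.0288). Ifit3b was low in all libraries, at 0.669 and 1.87 CPM in young KD, 1.68 and 1.04 in young KO, 0.0808 and 0.142 in sick KD and 1.27 and 1.79 in old KO (3.60, SE 0.86, adjusted p = 0.0447). The interferon-inducible GTPase Iigp1 was at 4.14 and 4.22 CPM in young KD, 4.48 and 3.59 in young KO, 0.363 and 0.569 in sick KD and 3.38 and 4.08 in old KO. Only sick KD was low, the log2 interaction was 3.03 (SE 0.38, adjusted p = 0.00990), and it held with every library left out. Cxcl10, an interferon-induced chemokine, had a log2 interaction of 2.53 (SE 0.40, adjusted p = 0.0164). Old KO lay within the young range for Rsad2, Ifit3b and Iigp1 apart from a lower value of Iigp1 in old KO 1. The number of interferon-stimulated genes called ran from 2 without young KO 1 to 17 without sick KD 2, with 4 without sick KD 1, 5 without old KO 2 and 3 without young KO 2 or young KD 1, and the list median stayed between 0.63 and 0.98.

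The core of the interferon-stimulated response element, searched as GAAA, any 2 bases and GAAA again, was found in 48.7% of 39 promoters of this list, in 5.45% of 477 positive and 2.95% of 271 negative promoters and in 2.82% of all 10676. It is shown for Rsad2 (chr12:26456523-26456612, minus strand) and for Slamf8 (chr1:172590569-172590623, minus strand), in both on the opposite strand.
Rsad2: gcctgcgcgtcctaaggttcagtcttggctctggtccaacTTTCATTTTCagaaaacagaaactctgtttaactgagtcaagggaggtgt
Slamf8: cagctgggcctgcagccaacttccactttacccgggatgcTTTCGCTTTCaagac
Saa3, with a negative interaction, also holds these letters, in lower case, in the stretch printed above.

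Stromal genes stood with the positive ones. Of 42 stroma, vessel and collagen genes, 10 were called, all positive (list median 1.27). Cxcl12, the chemokine that retains stem cells and lymphocytes in marrow, was at 53.7 and 51.8 CPM in young KD, 64.3 and 38.6 in young KO, 14.2 and 9.39 in sick KD and 91.6 and 54.8 in old KO. Sick KD lay below all others, and the log2 interaction was 2.67 (SE 0.44, adjusted p = 0.0192). Col1a2, a chain of type I collagen, was at 56.0 and 69.6 CPM in young KD, 58.1 and 26.4 in young KO, 3.11 and 5.26 in sick KD and 13.6 and 35.8 in old KO. Here old KO 1 lay below the young range too (3.13, SE 0.72, adjusted p = 0.0414). The adipocyte hormone Adipoq was at 4.49 and 4.58 CPM in young KD, 3.82 and 2.19 in young KO, 0.404 and 0.569 in sick KD and 5.39 and 2.99 in old KO (3.67, SE 0.55, adjusted p = 0.0153). Without young KD 1 none of the stromal genes was called, and without sick KD 1 or young KO 2 there were 2.

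**Figure D4:**
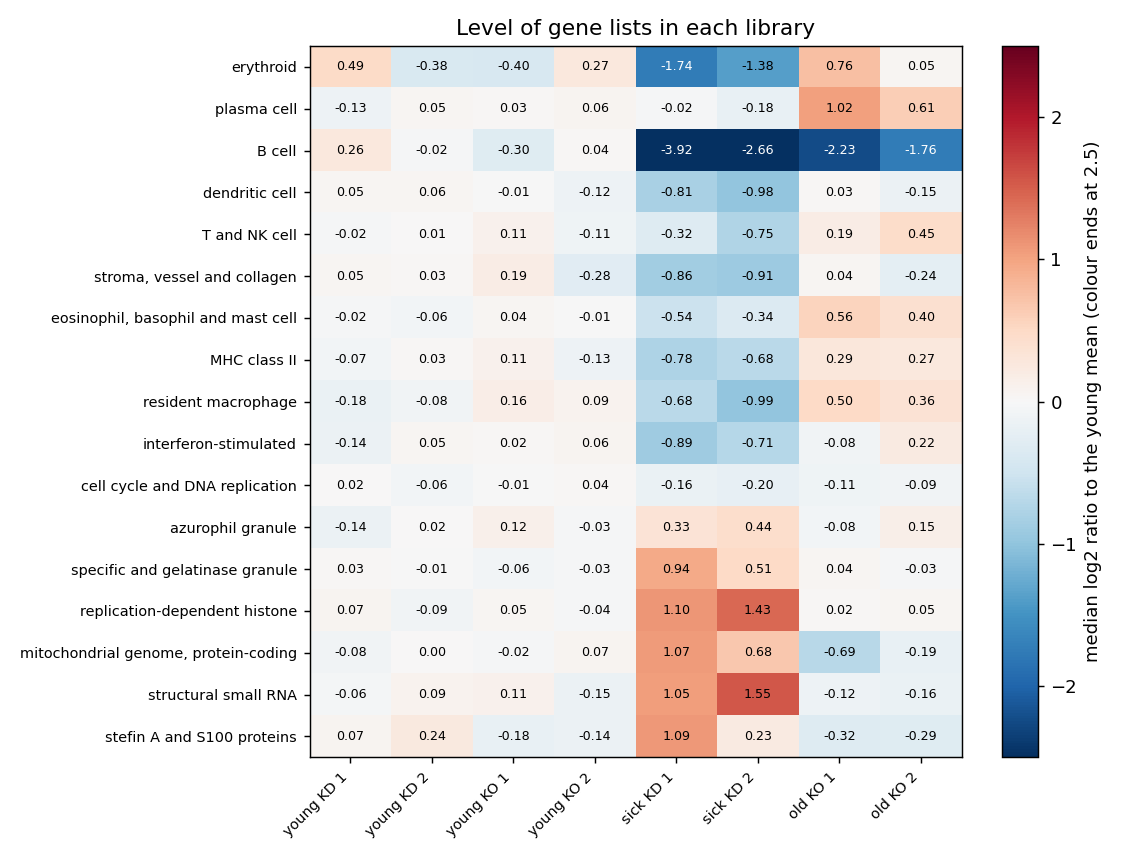
Each cell is the median over a list's tested members of log2(CPM + 1) in one library minus the mean of the 4 young libraries. Erythroid genes lie at -1.74 and -1.38 in sick KD, B-cell genes are low in both older groups, plasma cell genes are high only in old KO (1.02 and 0.61), and histone and structural small RNA genes are high only in sick KD.

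Inflammatory signalling genes went both ways. Of 35 genes of the TNF, IL-1 and NF-kB list, 4 were positive and 3 negative (list median 0.24). These calls depended on single mice, while the median stayed between 0.16 and 0.45 with 1 library left out. Tnf, the cytokine itself, was at 5.53 and 8.08 CPM in young KD, 8.34 and 6.30 in young KO, 23.4 and 26.5 in sick KD and 8.14 and 5.97 in old KO. It was highest in sick KD, above the other 6, with a log2 interaction of -1.94 (SE 0.34, adjusted p = 0.0218). The cytokine signalling inhibitor Socs3 was also negative (-0.99, SE 0.24, adjusted p = 0.0452). It was at 22.1 and 27.03 CPM in young KD, 27.7 and 32.0 in young KO, 43.5 and 56.6 in sick KD and 33.5 and 27.8 in old KO. Its call lay close to the threshold and depended on single mice. Traf1, an adaptor of TNF receptors, was positive and was at 2.26 and 2.65 CPM in young KD, 2.55 and 2.19 in young KO, 1.66 and 1.81 in sick KD and 6.48 and 5.08 in old KO. For Traf1 both old KO libraries lay above all others and both sick KD libraries below all others (1.78, SE 0.33, adjusted p = 0.0250). The NF-kB subunits Relb (1.51), Nfkb2 (0.87) and Nfkb1 (0.63) were positive. Among 26 chemokine genes and receptors, some of which also stand in the lists above, 8 were positive and Ccr1, a receptor of monocytes and neutrophils, was negative (-1.74, SE 0.26, adjusted p = 0.0146).

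Genes of p53 and of cell death belong to processes that the study examined. Of 57 p53 pathway genes, 5 were positive and 1 negative (10.5% called, against 7.43% of all genes; list median 0.17). None of them was called without old KO 1, young KO 1, young KO 2 or young KD 1, and 1 was without sick KD 1. Bbc3 (Puma), a BH3-only inducer of apoptosis, was at 5.33 and 5.07 CPM in young KD, 5.43 and 4.54 in young KO, 2.26 and 2.88 in sick KD and 8.07 and 6.56 in old KO. Both sick KD libraries lay below and both old KO libraries above the young range, the log2 interaction was 1.56 (SE 0.30, adjusted p = 0.0273), and it was called in 2 of the 8 fits. The tetraspanin Cd82 (1.14) and the antiproliferative Btg2 (1.11) were also positive, while Rps27l was negative (-0.62). Pmaip1 (Noxa) had a log2 interaction of 0.72 (SE 0.34, adjusted p = 0.214). Cdkn1a (p21) had one of -0.29 (SE 0.37, adjusted p = 0.653), which changed sign without sick KD 2. For Trp53 it was 0.14 (SE 0.19, adjusted p = 0.663). Of 22 genes of the BCL2 family, the BH3-only Bbc3 and the survival factor Mcl1 (0.83, SE 0.17, adjusted p = 0.0308) were called (9.09%), and neither was without sick KD 1, old KO 1, young KO 1, young KO 2 or young KD 1. Bcl2 was not, at 0.33 (SE 0.15, adjusted p = 0.197). The inflammasome adaptor Pycard was negative (-0.76, SE 0.14, adjusted p = 0.0223). Kdm1a, which encodes LSD1, was at 87.8 and 79.5 CPM in young KD, 79.97 and 81.1 in young KO, 52.8 and 57.7 in sick KD and 79.4 and 79.5 in old KO. Its log2 interaction was 0.58 (SE 0.13, adjusted p = 0.0372), and it was called in 1 of the 8 fits.

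Some functions gave no call. None of 54 cell cycle and DNA replication genes was called, their median was 0.04, and their summed level was between 11589 and 12477 CPM in the young libraries, 11648 and 10476 CPM in sick KD and 10941 and 11226 CPM in old KO. None of 41 lysosomal genes (median 0.06) and none of 19 heat shock genes (median 0.14) was called either, which with 2 mice per group does not show that they were the same. Of 40 genes of the integrated stress and unfolded protein response, only the chaperone Dnajb11 was called (0.58, SE 0.13, adjusted p = 0.0418). Its call depended on single mice, and it was called in 7 of the 9 alternatives that kept all libraries. Of 34 NADPH oxidase and antioxidant genes, only the glutaredoxin Glrx was (-0.84, SE 0.12, adjusted p = 0.0141). Among 39 glycolysis and pyruvate genes tested, Pfkm (1.12), Hk1 (0.81) and Hk2 (0.76) were positive. Gapdh (-0.76), Pgam1 (-0.66), Ldha (-0.63) and the pyruvate carrier Mpc1 (-1.01) were negative. The list median was -0.09, and these calls depended on single mice.

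Ribosomal and mitochondrial protein genes had small negative medians, with 4 called of 83 for the cytosolic ribosome (median -0.38), 5 of 77 for the mitochondrial ribosome (-0.22) and 4 of 76 for nuclear genes of the respiratory chain (-0.24). These shares, 4.82%, 6.49% and 5.26%, stand beside the 3.11% of all genes called negative. The counts moved with the processing, and removal of GC and length trends shifted the values of all genes by a median of -0.09 log2 units. With GC and length trends removed they were 21, 13 and 13, by DESeq2 they were 21, 7 and 9, and none was called in any of these lists without old KO 1, young KO 1, young KO 2, young KD 1 or young KD 2, while the medians stayed below 0 in every fit. Rpl38 was at 203 and 208 CPM in young KD, 225 and 193 in young KO, 346 and 382 in sick KD and 191 and 219 in old KO (-0.85, SE 0.16, adjusted p = 0.0263), and Sdhb, a subunit of succinate dehydrogenase, at 134 and 138 CPM in young KD, 151 and 134 in young KO, 202 and 205 in sick KD and 134 and 149 in old KO (-0.59, SE 0.14, adjusted p = 0.0418). Of 13 protein-coding genes of the mitochondrial genome, 7 passed the filter on low counts. Their values were larger and all below 0 (median -1.44), and 6 of the 7 were called. This count was 1 without young KD 1, 2 without old KO 1, young KO 1 or young KO 2, 3 without sick KD 1 and 4 without young KD 2. The complex I subunit mt-Nd5 was at 139 and 181 CPM in young KD, 170 and 148 in young KO, 612 and 416 in sick KD and 98.0 and 117 in old KO. Sick KD lay above and old KO below the young range, the log2 interaction was -2.24 (SE 0.29, adjusted p = 0.0107), and it held with every library left out.

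Replication-dependent histone genes, whose mRNA ends in a stem-loop in place of a poly(A) tail, made up the largest block of negative genes. Of 56 tested, 47 were called (83.9%), all negative, with a list median of -1.27. The linker histone gene Hist1h1e was at 701 and 655 CPM in young KD, 681 and 677 in young KO, 1829 and 2160 in sick KD and 623 and 674 in old KO. Both sick KD libraries lay well above a narrow range of the other 6, and the log2 interaction was -1.62 (SE 0.16, adjusted p = 0.00769). Hist4h4 was at 238 and 240 CPM in young KD, 256 and 235 in young KO, 705 and 731 in sick KD and 249 and 239 in old KO (-1.60, SE 0.13, adjusted p = 0.00769) and Hist1h3g at 83.9 and 74.0 CPM in young KD, 86.2 and 83.7 in young KO, 213 and 268 in sick KD and 82.8 and 88.1 in old KO (-1.60, SE 0.17, adjusted p = 0.00800). Histone genes made up 22 of the 42 negative genes that held with every library left out, and the number called ran from 24 without young KO 1 to 46 without sick KD 1 or 2. Near-identical copies can share reads, so single histone genes are less certain than the list. Structural small RNAs, also without a long poly(A) tail, were negative in 12 of 14 (median -1.70), for example the Cajal body RNA Scarna6, at 10.3 and 12.4 CPM in young KD, 11.7 and 9.93 in young KO, 30.1 and 40.4 in sick KD and 7.86 and 8.91 in old KO (-2.01, SE 0.26, adjusted p = 0.0105). The number of structural small RNAs called was 2 without young KO 1 or young KD 1, 5 without old KO 1, 6 without young KO 2 and 7 without old KO 2 or young KD 2. Small nucleolar RNA genes were negative in 26 of 75 and positive in none. The library kit selects poly(A) RNA. The shares of reads outside genes and of mitochondrial counts given above were also highest in the sick KD libraries, and their part in these results was not tested.

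**Figure D5:**
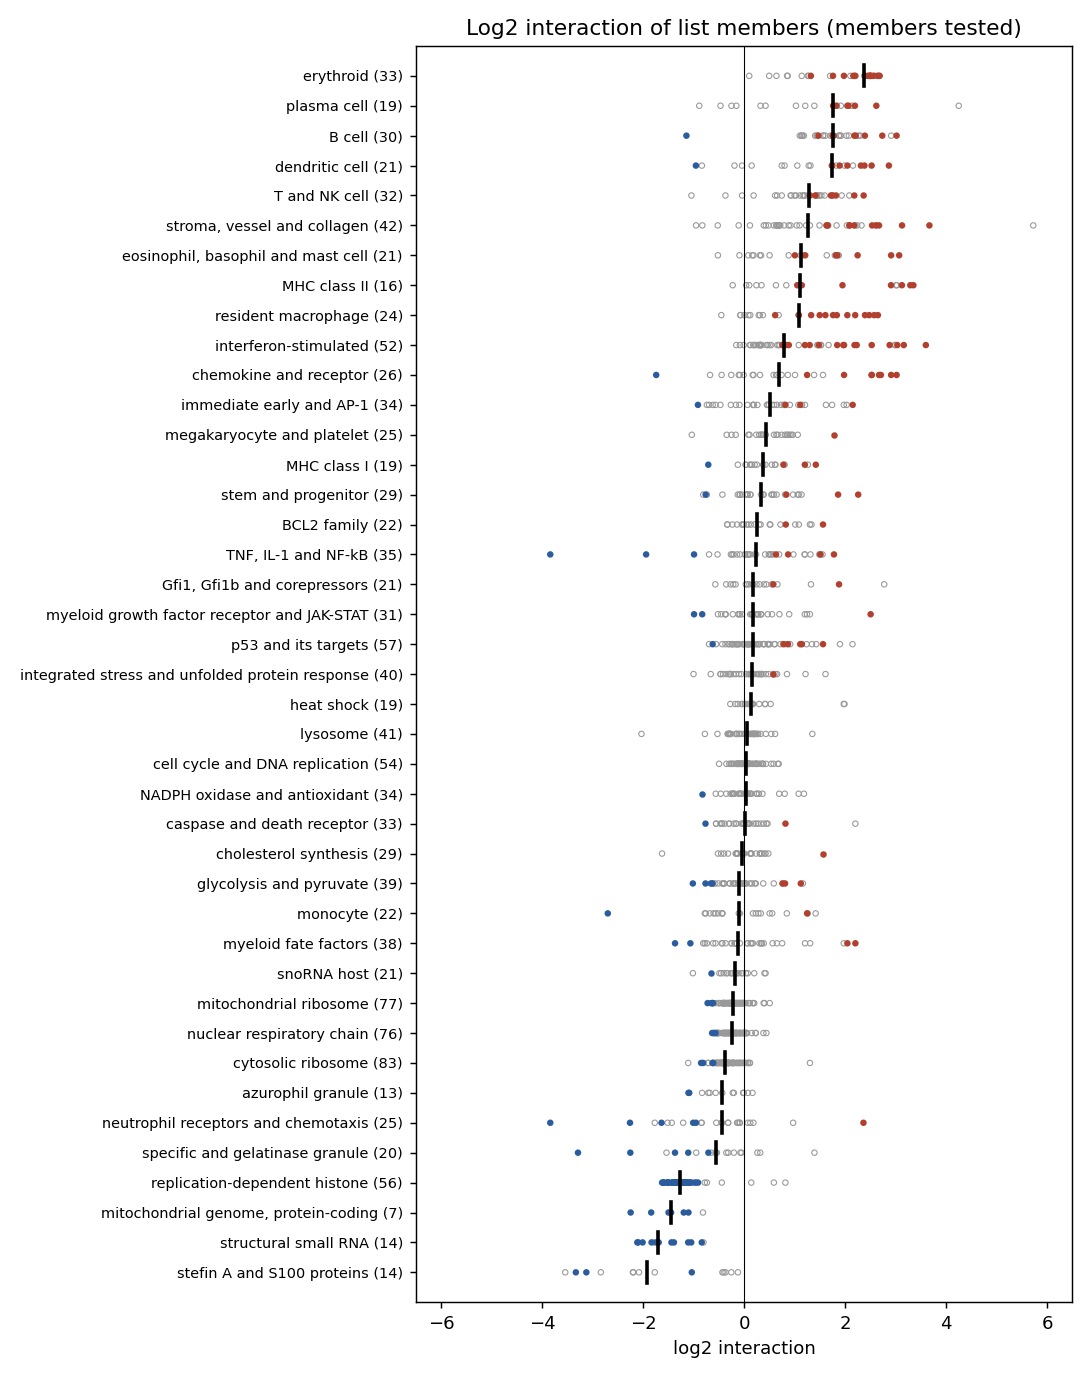
Log2 interaction (x axis) of the tested members of each gene list (filled, called, red positive and blue negative, and open, not called) with the list median (black bar), sorted by median. The sex-linked list (2 genes tested, median -2.18) is not drawn. The order given next is that of the lists drawn. Erythroid, plasma cell and B-cell lists have the highest medians and S100, structural small RNA, mitochondrial genome and histone lists the lowest, and the S100 median of -1.92 is -0.47 without sick KD 1.

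In 13 of the 1122 genes the young mice contributed at least 50% of the interaction. The 3 described here were chosen after their values were seen. Wdfy1, an endosomal adaptor, was at 16.6 and 19.2 CPM in young KD, 68.7 and 37.2 in young KO, 22.2 and 16.2 in sick KD and 19.2 and 14.5 in old KO. Young KO stood above all others and the older pair was alike (-1.76, SE 0.41, adjusted p = 0.0418). Trem2, a lipid receptor of macrophages, was at 26.0 and 28.0 CPM in young KD, 41.2 and 39.1 in young KO, 43.4 and 37.8 in sick KD and 28.8 and 38.4 in old KO. Both young KD libraries lay below all others, and the log2 interaction was -0.84 (SE 0.20, adjusted p = 0.0453). The lymphoid X-linked gene Xlr was at 2.21 and 4.86 CPM in young KD, 0.0454 and 0.274 in young KO, 0.283 and 0.320 in sick KD and 0.423 and 0.306 in old KO, with young KD alone high (4.79, SE 0.98, adjusted p = 0.0318). Others of the 13 were 5 kappa variable genes, and none of the 13 differed significantly between young KO and young KD in the same fit.

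Xist, the RNA that coats the inactive X chromosome, was at 714 and 944 CPM in young KD, 623 and 876 in young KO, 1809 and 1419 in sick KD and 633 and 643 in old KO. Sick KD lay above the other 6 libraries, and the log2 interaction was -1.19 (SE 0.28, adjusted p = 0.0440). No Y-linked gene of the sex-linked list passed the filter on low counts.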

How the data were processed

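Total bone marrow RNA was prepared with a TruSeq Stranded mRNA kit and sequenced on Illumina instruments. The authors deposited raw read counts per gene for each of the 8 libraries, made with TopHat2 2.0.10 and HTSeq on mm10 per the labels. The Ensembl release and the strand setting are not given in the sources used here. HTSeq's own tallies of unassigned reads were left out of the tests. Of 41214 gene identifiers, 40340 had a GENCODE M21 symbol. Counts were fitted with edgeR 4.0.16 in R 4.3.3 (filterByExpr by group, TMM, quasi-likelihood F test, no covariate) over all 4 groups, with 4 residual degrees of freedom, and p-values were adjusted by the Benjamini-Hochberg method over all genes tested. Replicates were individual mice, 2 per group. The p-values rest on the spread between mice of the same group, pooled over the 4 groups and moderated across genes. They do not measure the spread of each group separately.

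Named genes were the 12 largest positive and 12 most negative protein-coding genes with a mean of at least 5 CPM and no overlap between old KO and sick KD (immunoglobulin, T-cell receptor, histone and sex-linked genes apart), up to 3 called members of each list, 8 genes the study names and genes with significant changes in opposite directions. Further list members are given as examples of their list. The members, lists and rules were chosen with earlier results of these data known. Promoters were RefSeq's for GRCm38.p6. Alternatives used other scaling and filters, removal of GC and length trends, log2 age as a covariate, limma voom 3.58.1, DESeq2 1.42.0 and each library left out, and 1 added after seeing the data left out sick KD 1 with old KO 1. The procedure was tested on simulated data.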

Additional observations from a re-analysis of the deposited data

Results flagged for a closer look

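The interaction is itself a test of whether the KO-minus-KD difference differs between the young and the older pair, so all 1122 called genes are listed as differing between groups. Those among the genes named by rule that held with each library left out are given with their log2 interaction. Positive values were 3.49 for Sec14l2, 3.06 for Pklr, 2.65 for Cd5l, 2.48 for C1qa, 2.74 for Fcer2a, 2.62 for Iglc2, 2.26 for Trib2, 2.91 for Ccr3, 3.03 for Iigp1, 3.85 for Igkv8-30 and 2.56 for Slamf8. Negative values were -3.98 for Saa3, -3.28 for Wfdc21, -2.25 for Lrg1, -2.24 for mt-Nd5, -1.62 for Hist1h1e, -1.60 for Hist1h3g, -1.60 for Hist4h4, -2.01 for Scarna6 and -1.37 for Id2. Reads outside annotated genes, which entered no comparison, made up 42.0% in sick KD 1 and 38.8% in sick KD 2, above every other library. Groups of 2 mice are too small for the test of a single outlying value, which was not run.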

How the results depend on the processing

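No paired analysis was possible because the labels number the mice individually and share no number between groups. Against 1122 genes (653 positive, 469 negative), the count was 2919 (1777 and 1142) with genes of at least 1 count in any library, 1979 (805 and 1174) with GC and length trends removed and 1951 (1151 and 800) by DESeq2. Without mitochondrial, small RNA and histone genes it was 821 (520 and 301). Leaving out 1 library gave between 106 and 1614 genes, between 53 and 879 positive and between 51 and 735 negative, where a lone mouse was assumed to vary like the other groups. The alternative chosen after seeing the data, without sick KD 1 and old KO 1, gave 264 genes (145 and 119). The cause of these shifts was not tested, beyond the change in genes or libraries that defines each setting. Of 108 named genes that were called, 94 to 108 were called under the other tools, scalings, filters and covariates that kept all of them in the test, 88 of the 99 tested without mitochondrial, small RNA and histone genes, and between 23 and 92 with 1 library left out. None of the 108 reversed. Values that changed sign belonged to genes that were not called: Gfi1 ranged from -0.041 (without old KO 2) to 1.12 with 1 library left out, Cdkn1a from -0.62 to 0.14, Trp53 from -0.042 to 0.34 and Itgam from -0.12 to 0.40. With GC and length trends removed Trp53 was -0.043 and Itgam -0.050, and Trp53 was -0.03 without sick KD 1 and old KO 1. Whether depth or the number of mice limits these calls was not tested.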

Other observations

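Among the 78 genes that held with every library left out, several outside the naming rule were picked after their values were seen. Ets1, a factor of lymphocytes, had a log2 interaction of 1.90, the lymphotoxin subunit Ltb 2.33, Slamf7, a receptor of NK and plasma cells, 2.49, and the GTPase Gimap1 2.12. In Ets1, Slamf7 and Gimap1 both old KO libraries lay below all young ones and sick KD lay lowest. For Ltb old KO lay inside the young range. The macrophage lectin Fcna was at 1.92 and the mannose-6-phosphate receptor Igf2r at 2.10. The ubiquitin ligase subunit Asb2 was at 3.08 and the sialyltransferase St6gal1 at 1.69. For St6gal1 too, old KO lay below all young libraries. Negative genes outside the histones included Polr2a, the largest subunit of RNA polymerase II, at -1.13, the ubiquitin ligase Cblb at -1.59, the coactivator Zmiz1 at -1.53 and the small nucleolar RNA Rnu3a at -2.18.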
